A study of Mus musculus with 27 samples.

Results

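The whole heart of the mouse embryo at E11.5 (E for embryonic day) was compared with the ventricles at E16.5 in 6 bulk messenger RNA libraries, 3 of each stage, out of 27 samples in all. Every embryo behind these 6 libraries was F/+ on the C57BL/6 strain, that is, it carried a full-length deletion of the long non-coding RNA gene Hand2os1 (Hand2as in the labels) on 1 chromosome and a wild-type copy on the other. No wild-type embryo enters the comparison, so anything that follows from having a single copy of Hand2os1 is shared by both groups. Libraries from F/F embryos, which lack Hand2os1 on both chromosomes, were available at the same stages (3 and 3) and were used as a second set of animals. Stage and dissected tissue change together here, since atria, outflow tract and great vessel roots belong to the heart but not to the ventricle, and the effects of age, of dissection and of any library batch cannot be told apart. The labels do not say whether libraries came from separate embryos or from pools, so p-values measure the spread between these samples, which may be technical. In bulk samples fewer cells of a type and less RNA per cell cannot be told apart either.

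Between these stages the mouse heart finishes septation and valve formation, the coronary vessels connect to the aorta, and the ventricular wall thickens by growth of its compact layer. Cardiomyocytes keep dividing while they build more ordered sarcomeres, sarcoplasmic reticulum and mitochondria, and they move slowly from glucose and lactate towards fatty acids as fuel. Contractile and metabolic proteins exist as isoforms from separate genes, and exchange of an embryonic or slow isoform for a mature one is a classic readout of this maturation. Over the same days red blood cells change from large primitive cells of yolk sac origin, with embryonic globins, to definitive cells of the foetal liver with adult globins.

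Values are FPKM, read numbers per transcript length and per library size, and a difference is E16.5 minus E11.5 on the log2(FPKM + 1) scale, which understates the change of low genes. A gene is said to have risen or fallen when limma, fitted over every gene that averaged 1 FPKM or more across the 6 libraries, gave a Benjamini-Hochberg adjusted p under 0.05. Read depth is unknown. The 6 columns summed to 376930 to 457462 FPKM at E11.5 and 334194 to 339074 at E16.5. Haemoglobin genes took 20.09%, 10.37% and 29.72% of the FPKM in E11.5 replicates 1, 2 and 3, and at most 0.83% at E16.5. Pearson's r of log2 values across genes was 0.967 to 0.979 among E11.5 libraries, 0.989 to 0.992 among E16.5 libraries and 0.905 to 0.932 between stages. Y-linked genes were present in E11.5 replicate 3 and in E16.5 replicate 2, so embryos of both sexes occur in each group. Hand2os1 itself, listed in the table as LOC102636514, was at 0 in the 3 E11.5 libraries and at 0.81, 0.37 and 1.40 FPKM at E16.5, too low to serve as a check of the F/+ label.

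The tissue labels were checked against defining markers. Of 11 cardiomyocyte markers 7 rose and 1 fell, and their summed level was 8938, 9995 and 8235 FPKM at E11.5 and 20951, 20366 and 22909 FPKM at E16.5. Genes of atrium, sinus and conduction tissue fell in 19 of 22 cases, as described below with their values, and the ventricular transcription factor genes Hey2 and Irx4 rose. Of 22 genes of the compact and trabecular ventricle, however, 6 rose and 10 fell, so that list as a whole did not bear out the label. Among those that fell was Myl2, the regulatory light chain of ventricular myosin. It measured 2912, 2939 and 3166 FPKM in the E11.5 hearts and 783, 326 and 337 FPKM in the E16.5 ventricles, so every ventricle library was lower than every heart library. The ventricle libraries also differed among themselves in Myl2, as described below.

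Of 11405 genes tested, 5552 were called (48.7%), 2016 of them higher at E16.5 (17.7%) and 3536 lower (31.0%). For 60.0% of the genes tested all libraries of a stage lay on the same side of the other stage. The split between higher and lower depends on the scaling. As deposited, the median difference over all genes tested was -0.181, and 36.3% of calls were higher. With the libraries rescaled by median ratios that median was 0.0146, and 3021 genes were called higher and 2800 lower (51.9% higher). No gene called on the deposited values was called in the opposite direction under any alternative run, but small differences and the counts of weakly changed lists should be read against this shift of about 0.2. Large differences were more often falls than rises: 196 genes were called higher by at least 2 on the log2 scale and 511 lower.

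**Figure D1:**
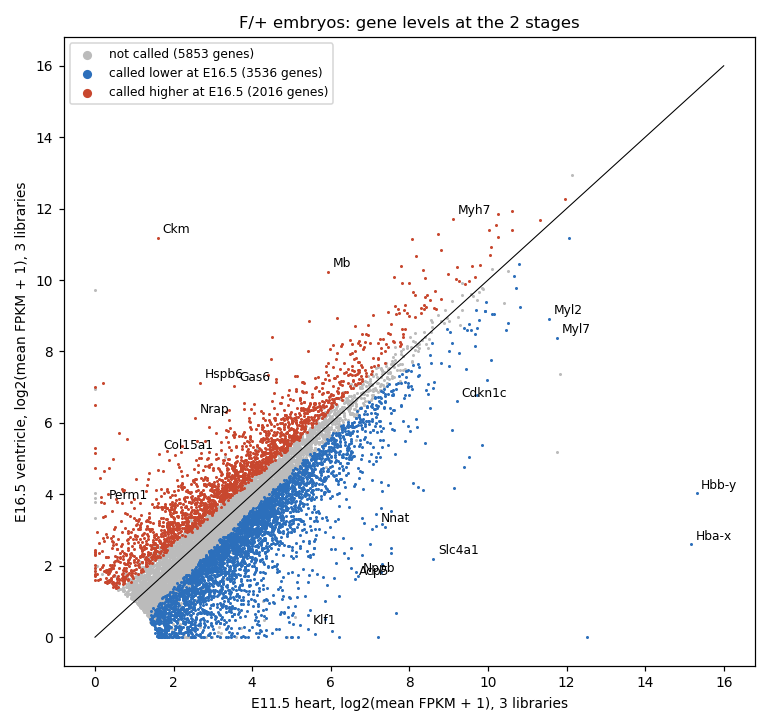
Mean level of each tested gene in 3 E11.5 F/+ hearts (x axis) and 3 E16.5 F/+ ventricles (y axis), both as log2(mean FPKM + 1), with the line of equal level. Red points (2016 genes) were called higher and blue points (3536 genes) lower at E16.5. Ckm lies farthest above the line among the labelled genes, and the embryonic globin genes Hba-x and Hbb-y lie farthest below it.

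Several of the largest rises were in muscle genes. Ckm, the muscle form of creatine kinase, which regenerates ATP from phosphocreatine, measured 1.13, 3.18 and 1.75 FPKM at E11.5 and 2363, 2119 and 2457 FPKM at E16.5. That is a change from a trace to an abundant transcript of the ventricle, 1145-fold between the means (difference 9.64, SE 0.23, limma adjusted p = 3.36e-07). Mb encodes myoglobin, the oxygen-binding protein of muscle, and measured 58.9, 47.9 and 73.7 FPKM in the hearts and 1202, 1133 and 1274 FPKM in the ventricles, a difference of 4.32. Hspb6, a small heat shock protein of muscle, stood at 6.17, 3.12 and 6.78 FPKM and then at 123.8, 134.4 and 155.1 FPKM. Nrap, a scaffold for myofibril assembly, went from 7.52, 4.97 and 1.93 FPKM to 67.2, 67.2 and 75.8 FPKM. Perm1, a regulator of mitochondrial gene expression in muscle, went from at most 0.21 FPKM to 14.1, 11.4 and 11.99 FPKM. None of these groups overlapped.

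The other genes chosen by size of rise were Mhrt (57.0-fold between means), a non-coding RNA transcribed at the Myh6 and Myh7 locus, Lynx1 (27.8-fold), Col15a1 (16.4-fold), Ndufa12 (15.5-fold), Mlf1, Gas6 (12.2-fold), a ligand of TAM receptors, and the adult beta globin gene Hbb-b1 (8.44-fold). The heart values of Hbb-b1 ran from 28.8 to 562 FPKM, and its log2 difference ran from 2.69 to 4.81 across alternatives, so its fold is uncertain. Ndufa12 shares 29.4% of its 30-base words with another gene, so its value is uncertain. Mhrt lies antisense to Myh7, and since the strand setting of the count is not given, their reads may not be separable. The genes with the largest falls were of 3 kinds. Red blood cell genes were Hba-x, Hbb-y, Slc4a1, Klf1 and Acp5, the last of them at 301 CPM in haemoglobin-rich and 20.1 CPM in other barcodes of the single-cell library used below. Housekeeping transcripts were Rpl36al, Rps24, Rpl32, Rpl14-ps1, Dbi and Tmem258, whose values are given with the ribosomal protein genes. The remaining gene was Nppb, which encodes B-type natriuretic peptide. It measured 98.8, 100.5 and 107.8 FPKM in the hearts and 2.54, 1.72 and 2.55 FPKM in the ventricles, 45.1-fold lower with little spread in either group (limma adjusted p = 9.31e-07).

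Sarcomere genes moved in both directions. Of 13 tested genes of the thick filament, the bundle of myosin motors, 6 rose and 6 fell. Of 18 thin filament genes 8 rose and 6 fell, and of 19 Z-disc and titin genes 11 rose and 3 fell. Their median differences were 0.474, 0.367 and 1.24, against -0.181 over all genes tested, of which 17.7% rose and 31.0% fell. After median-ratio scaling the thin filament count was 12 up and 6 down, and the thick filament count 7 up and 5 down. Over all 11370 genes tested with that scaling, 3021 were higher and 2800 lower.

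Among the myosin heavy chains, Myh7, the slow beta form that dominates the foetal mouse ventricle, rose from 625, 779 and 247 FPKM to 3124, 3248 and 3720 FPKM (limma adjusted p = 0.00047). Myh6, the fast alpha form of atrium and adult ventricle, measured 477, 644 and 460 FPKM at E11.5 and 319, 372 and 421 FPKM at E16.5, a small fall that did not pass the test after median-ratio scaling. On the FPKM scale Myh7 exceeded Myh6 in 2 of 3 hearts and in every ventricle library. Myh7 and Myh6 share 32.6% and 33.2% of their words with other genes. Among the light chains the atrial pair fell: Myl7 from 2915, 3945 and 3530 FPKM to 312, 357 and 335 FPKM, 10.4-fold lower, and Myl4, the embryonic and atrial essential light chain, from 1630, 1891 and 1848 FPKM to 601, 633 and 600 FPKM. Myl3, the ventricular essential light chain, rose from 1202, 1424 and 1035 FPKM to 3671, 3498 and 3912 FPKM. Its regulatory partner Myl2 fell, as given above. Myom2, an M-band protein, went from at most 0.27 FPKM in any heart library to 29.0, 21.2 and 22.4 FPKM.

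Troponin I, the subunit that holds the thin filament off until calcium arrives, has a slow embryonic gene, Tnni1, and a cardiac gene, Tnni3. Tnni1 measured 1154, 1269 and 1116 FPKM at E11.5 and 3027, 2790 and 3114 FPKM at E16.5. Tnni3 measured 278, 297 and 288 FPKM at E11.5 and 1535, 1519 and 1882 FPKM at E16.5. Both rose, 2.52-fold and 5.72-fold between means, and Tnni1 remained the higher of the pair in each of the 6 libraries on the FPKM scale. Among the actins, skeletal Acta1 fell 4.20-fold, from 218, 320 and 206 FPKM to 61.6, 59.2 and 56.3 FPKM. Cardiac actin Actc1 measured 2605, 2756 and 2398 FPKM and then 3518, 3093 and 3301 FPKM, a call that was lost in some alternatives. Z-disc genes with large rises were Ldb3, Actn2 (alpha-actinin, 239, 331 and 187 FPKM to 913, 958 and 1010 FPKM) and Synpo2l. The giant spring protein gene Ttn was not called, at 13.2, 16.4 and 5.96 FPKM and then 6.18, 8.04 and 7.65 FPKM.

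**Figure D2:**
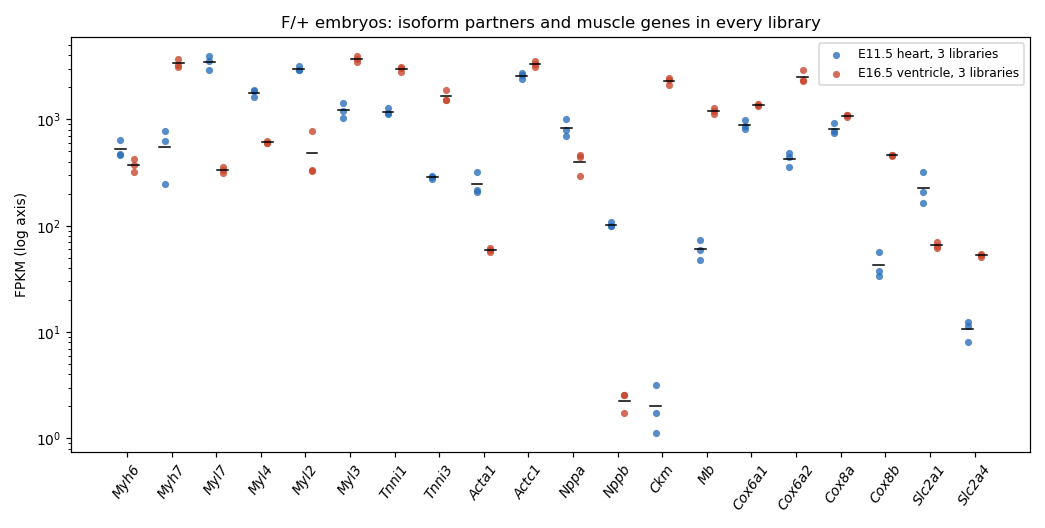
FPKM on a log axis of 20 genes in each F/+ library, blue for 3 E11.5 hearts and red for 3 E16.5 ventricles, with black bars at the means. Myl7 and Myl4 fell while Myl3 and Myh7 rose, Nppb and Ckm changed most among the genes drawn, and 1 of the 3 ventricle libraries has a higher Myl2 than the other two.

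Of 24 genes of the calcium store and its release 11 rose and 6 fell. Trdn (triadin), which anchors the release machinery, was at most 0.28 FPKM in the hearts and 8.63, 13.3 and 16.6 FPKM in the ventricles. Its heart values are uncertain, as described below with the single-cell values. Casq2, the cardiac calcium-buffering calsequestrin, rose from 3.19, 2.42 and 2.75 FPKM to 11.7, 10.4 and 14.3 FPKM, whereas its skeletal paralog Casq1 fell from 120.4, 157.8 and 120.2 FPKM to 29.6, 48.7 and 39.6 FPKM. The L-type channel gene Cacna1c rose as well. The pump gene Atp2a2 measured 190, 257 and 195 FPKM and then 304, 317 and 303 FPKM, 1.44-fold higher. Its call was lost in 1 of 21 alternatives, that without E16.5 replicate 2. Pln, the pump inhibitor phospholamban, fell from 67.3, 60.3 and 44.5 FPKM to 13.3, 16.2 and 22.2 FPKM. Its atrial relative Sln was listed at 1.23, 1.68 and 3.22 FPKM and then at 0 in all 3 ventricles. Ryr2, the release channel, was not called, with 11.9 to 19.4 FPKM across the 6 libraries.

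Sodium, potassium and pacemaker channel genes rose in 9 of 18 cases and fell in 4. Kcnip2, the accessory subunit of the transient outward current, was at most 0.53 FPKM at E11.5 and 28.2, 26.2 and 22.99 FPKM at E16.5. The repolarising channel genes Kcnq1 and Kcnj12 rose from 2.79, 4.52 and 3.49 FPKM to 23.6, 20.04 and 21.98 FPKM and from 1.21, 1.07 and 1.29 FPKM to 8.70, 7.89 and 10.2 FPKM. The pacemaker channel gene Hcn4 fell from 12.1, 20.2 and 9.14 FPKM to 4.10, 7.28 and 5.38 FPKM. Genes of connexins and the intercalated disc, the junction between cardiomyocytes, are set against 17.7% higher and 31.0% lower over all genes tested. Of 15 in this list 4 rose and 2 fell (7 and 1 after median-ratio scaling). The rises were Xirp1, Jup (35.1, 43.01 and 39.7 FPKM to 98.7, 89.5 and 96.9 FPKM), Pkp2 and Dsp. Gja1, the working myocardium connexin, was not called.

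Energy genes rose in most lists. Of 36 tested genes of fatty acid uptake and oxidation 27 rose and 4 fell, of 26 genes of the tricarboxylic acid cycle and pyruvate entry 17 rose and 3 fell, and of 35 subunits of complex I, the entry point of the respiratory chain, 25 rose and 5 fell. Complexes II and III counted 8 up and 2 down of 13, cytochrome oxidase 8 up and 4 down of 16, and ATP synthase 8 up and 2 down of 17. The medians of these 6 lists lay between 0.312 (cytochrome oxidase) and 1.05 (fatty acids), against -0.181 over all genes tested and a background of 17.7% higher. Without genes that share at least 20% of their 30-base words with another gene, complex I counted 22 up and 5 down of 32, fatty acids 23 up and 3 down of 30, and cytochrome oxidase 6 up and 4 down of 12.

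Of 16 genes of creatine and energy transfer, Ckm among them, 9 rose and 2 fell. Of the 2 skeletal muscle markers tested, Ckm rose and Actn3 fell. Fuel uptake genes are further examples. Lpl, the lipase that frees fatty acids from lipoproteins at the capillary wall, rose from 10.54, 8.44 and 8.47 FPKM to 49.4, 55.1 and 60.7 FPKM. Fabp3, the muscle fatty acid binding protein, rose from 17.7, 13.8 and 14.9 FPKM to 107.6, 80.6 and 86.9 FPKM, and it shares 37.8% of its words with another gene. Ppargc1a, the coactivator known for driving mitochondrial biogenesis, measured 3.16, 3.58 and 2.97 FPKM and then 20.02, 19.6 and 20.3 FPKM. Cpt1b, the muscle gate for fatty acid entry into mitochondria, rose 2.65-fold between means. On the glucose side 14 of 26 genes rose and 5 fell. The glucose transporters moved in opposite directions: Slc2a1, the embryonic and insulin-independent form, fell from 206, 317 and 163 FPKM to 62.1, 70.5 and 64.7 FPKM, and Slc2a4, the insulin-responsive form, rose from 8.04 to 12.3 FPKM to 53.6, 50.9 and 54.6 FPKM. Slc2a1 nevertheless stood above Slc2a4 in each ventricle library. Of the lactate dehydrogenases, Ldha was not called (limma adjusted p = 0.467, groups overlapping) and Ldhb rose 1.42-fold. They share 34.99% and 42.27% of their words with other genes, so their values are uncertain.

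Cytochrome oxidase has heart and muscle isoforms for 3 of its nuclear subunits, known as the H forms, beside L forms found in most tissues. All 3 H forms rose. Cox6a2 went from 358, 439 and 479 FPKM to 2302, 2338 and 2906 FPKM, Cox7a1 from 58.4, 66.2 and 61.4 FPKM to 332, 249 and 222 FPKM, and Cox8b from 33.8, 37.2 and 56.4 FPKM to 457, 464 and 458 FPKM. Of the L partners Cox6a1 rose 1.54-fold between means, Cox8a rose 1.32-fold with a call lost in some alternatives, and Cox7a2 fell from 48.3, 30.9 and 162 FPKM to 5.10, 4.23 and 2.93 FPKM. Cox6a1 shares 24.72% of its words with other genes, so its values are uncertain. At E16.5 Cox6a2 exceeded Cox6a1 in each library, while Cox8b stayed below Cox8a.

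**Figure D3:**
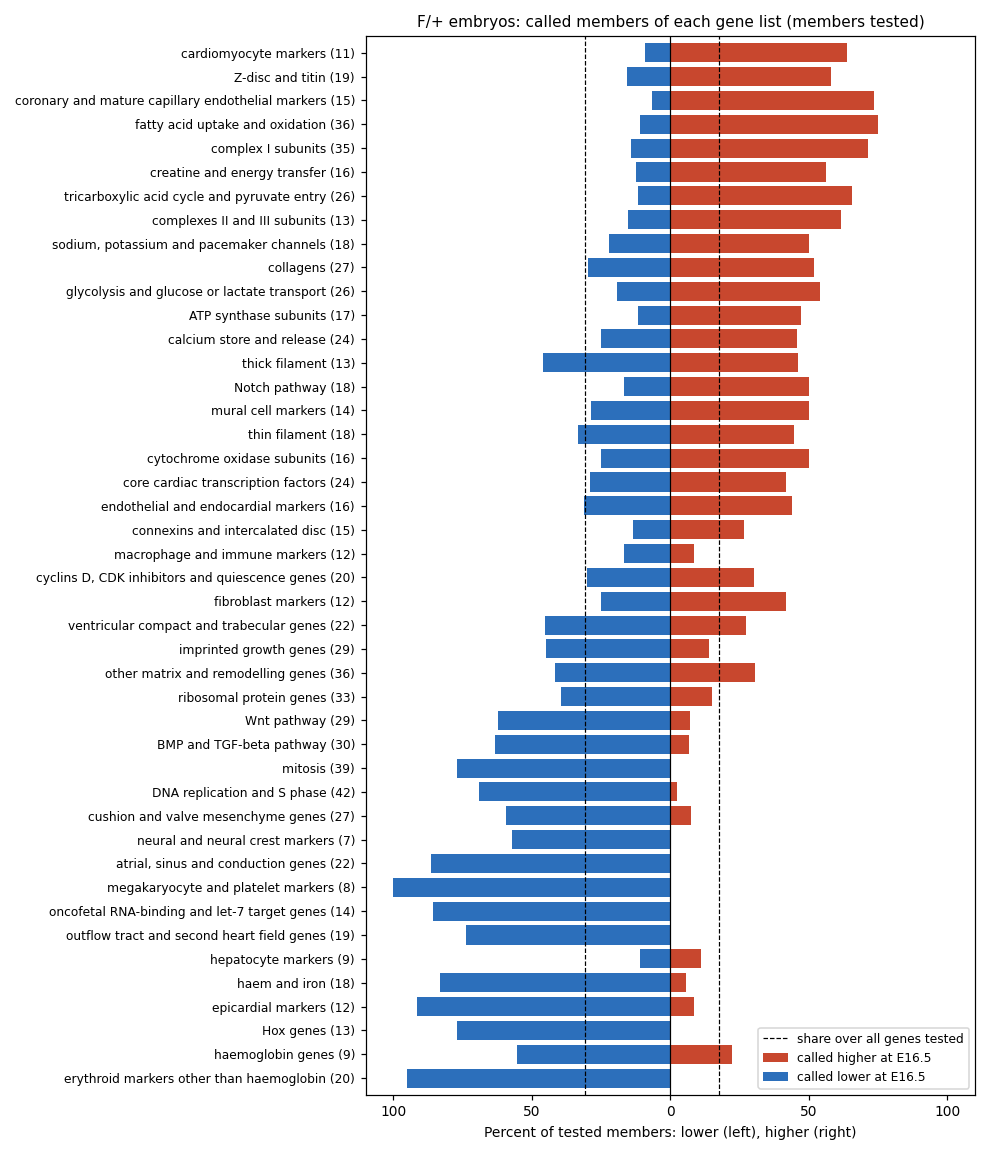
Percent of tested members of each gene list called higher (red, right) or lower (blue, left) at E16.5 in F/+ embryos, with the number tested in brackets, ordered by the median difference of the list. Dashed lines mark the shares over all genes tested, 17.7% higher and 31.0% lower, and lists of muscle and energy genes lie at the top while erythroid, globin, Hox and epicardial lists lie at the bottom.

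The falls among energy genes need their own account, because they were deep and few. Ndufa4, counted with complex I, measured 291, 263 and 412 FPKM at E11.5 and 15.7, 17.1 and 16.3 FPKM at E16.5. Cox7b measured 108.8, 83.8 and 139.1 FPKM and then 3.75, 5.33 and 2.62 FPKM. Mdh1, cytosolic malate dehydrogenase, measured 164, 156 and 174 FPKM and then 6.55, 7.78 and 8.26 FPKM, whereas the mitochondrial enzyme Mdh2 rose 1.91-fold. In the 8-week +/+ libraries of the same table, whose source is named as cardiomyocytes, the medians of 5 libraries were 1331, 350.5 and 648 FPKM for Ndufa4, Cox7b and Mdh1. Myl2 ranged from 11845 to 15819 FPKM and Pln from 221.6 to 714.6 FPKM at 8 weeks, above all of their ventricle values. Nppb, at 237 FPKM, and Acta1, at 254 FPKM, also had 8-week medians above all ventricle values. The E16.5 libraries are shared by these side-by-side values, so they are given without a test.

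A further set differed among the ventricle libraries themselves. Ndufa3 measured 204, 40.2 and 7.12 FPKM in F/+ E16.5 replicates 1, 2 and 3, Idh3g 61.3, 23.5 and 11.4 FPKM, Uqcr10 338, 156 and 80.4 FPKM, Rpl4 284, 105 and 47.6 FPKM, and Rpl32 81.9, 33.1 and 7.74 FPKM. In the F/F ventricles the same genes were highest in replicate 3, with 209, 58.6, 348, 339 and 94.0 FPKM. Myl2 was highest in the same libraries, at 783, 326 and 337 FPKM in F/+ and 432, 411 and 1016 FPKM in F/F. So was Pecam1, at 10.49, 7.62 and 3.31 FPKM in F/+ and 4.45, 1.53 and 12.97 FPKM in F/F. The ventricle values of Myl2 and Pecam1 stayed below every heart value of the same genotype. Of 7029 genes that averaged 5 FPKM or more at E16.5 in F/+, 32 (0.455%) had a range of at least 2 on the log2 scale, and replicate 1 was the highest library in 24 of them. Of 7089 such genes in F/F, 61 had that range, and replicate 3 was highest in 50. Short transcripts and near-copies carried more of the extreme differences: an absolute difference of at least 3 was found in 7.14% of genes with a median transcript length of up to 500 bases and in 0.764% of those above 4000 bases, and in 6.02% of genes sharing over 50% of their words with another gene against 1.8% of those sharing none. The part of these library differences in the falls of single genes was not tested.

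**Figure D4:**
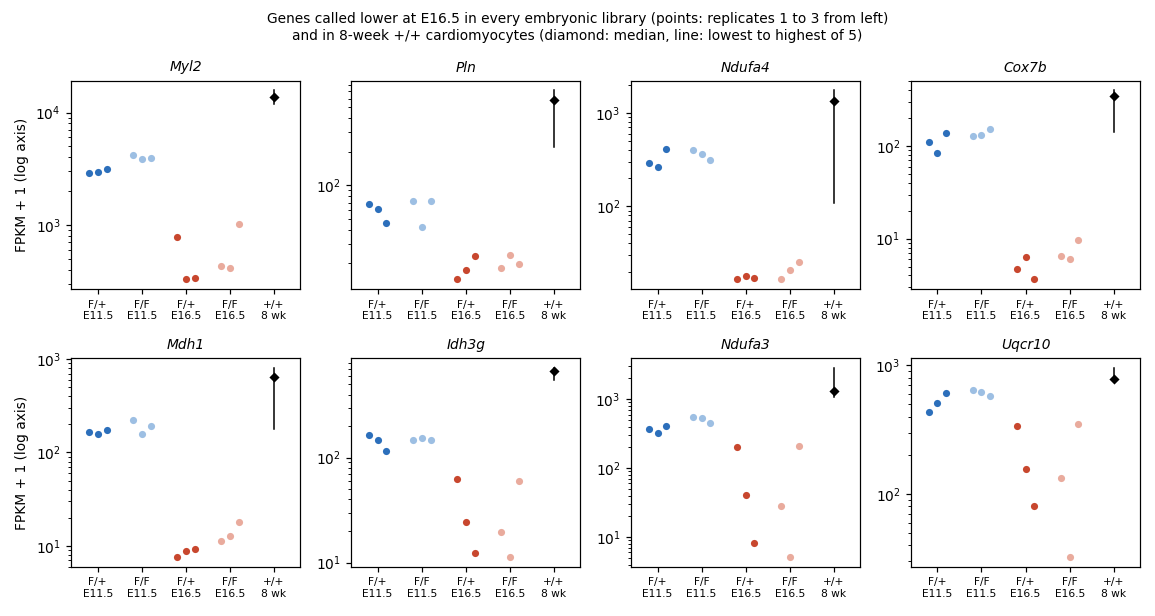
FPKM + 1 on log axes for 8 genes called lower at E16.5, with the 3 replicates of each embryonic group drawn from left to right (dark blue and dark red F/+, light F/F) and 5 +/+ 8-week libraries as a diamond at the median and a line from lowest to highest. All 8 genes are lower in every ventricle library than in the 8-week libraries, while in Idh3g, Ndufa3 and Uqcr10 the ventricle libraries of 1 genotype differ several-fold among themselves.

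Ribosomal protein genes illustrate the limit. Of 33 tested in the list, 5 rose and 13 fell, against 17.7% higher and 31.0% lower over all genes tested. Only 6 of the 33 share less than 20% of their words with other genes, and of these 0 rose and 4 fell. The list does not include Rpl36al, Rps24, Rpl32 and Rpl14-ps1, which were chosen by size of fall. Rpl36al measured 207, 166 and 231 FPKM in the hearts and 0.77, 0.64 and 0.37 FPKM in the ventricles, and Rps24 191, 112 and 160 FPKM and then 1.55, 2.23 and 3.81 FPKM. The pseudogene Rpl14-ps1 measured 740.3, 636 and 631 FPKM and then 56.7, 12.2 and 9.53 FPKM. Shared words were 26.1% for Rpl36al, 26.2% for Rps24, 45.6% for Rpl32 and 85.9% for Rpl14-ps1, so the values of these 4 genes are uncertain. Dbi, an acyl-CoA binding protein, and Tmem258 share 6.3% and 6.76%. Dbi went from 159, 136 and 177 FPKM to 3.24, 1.77 and 4.38 FPKM, and Tmem258 from 186.0, 186.1 and 181 FPKM to 1.88, 6.31 and 4.04 FPKM. In all, 8 of 40 ribosomal protein genes were listed at 0 in some F/+ library, and Gapdh averaged 0.973 and 0.790 FPKM at the 2 stages although its level in the +/+ E11.5 single-cell library was 3336 CPM in barcodes poor in haemoglobin. Mpc1, the mitochondrial pyruvate carrier, was listed at 0 in the 3 hearts and at 34.1, 26.2 and 54.8 FPKM in the ventricles, with 74.5 CPM in the same E11.5 single cells. Uqcrb, at 2.25, 0 and 0 FPKM in the hearts, had 852 CPM there. A low listed value of such genes is therefore not a measure of absence. Ckm had 3.79 CPM in those cells. Trdn had 41.7 CPM and Ryr2 41.8 CPM, while their bulk heart means were 0.11 and 14.8 FPKM. The low heart value of Trdn is therefore uncertain as well.

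Cell cycle genes fell. Of 42 genes of DNA replication and S phase 29 fell and 1 rose, and of 39 mitosis genes 30 fell and 0 rose, with medians of -1.02 for each list and a background of 31.0% lower. After median-ratio scaling the counts were 27 and 26 lower and 1 and 1 higher. Mki67, the proliferation marker Ki-67, measured 41.9, 25.8 and 62.4 FPKM in the hearts and 3.29, 3.65 and 4.29 FPKM in the ventricles. Nusap1, a spindle protein, went from 18.8, 11.95 and 17.3 FPKM to 0.47, 0.36 and 0.58 FPKM. Prim1, the DNA primase, went from 21.3, 10.2 and 17.5 FPKM to 0.10, 0.54 and 0.22 FPKM, and Cdc6, which loads the replicative helicase, from 7.93, 8.30 and 8.16 FPKM to 0.54, 0.30 and 0.11 FPKM. The falls were uneven. Pcna, the polymerase clamp, fell 1.30-fold, Cdk1 2.76-fold and Top2a 3.26-fold, and the S phase factor gene E2f1 rose 1.45-fold. In the E11.5 single-cell library described below, Mki67 had 131 CPM in haemoglobin-rich and 64.4 CPM in other barcodes, and Nusap1 90.0 and 63.8 CPM. The part of red blood cells in the falls was not tested. Among genes that brake the cycle or mark its exit the directions were mixed, 6 up and 6 down of 20. Cdkn1a rose from 10.1, 11.95 and 7.08 FPKM to 20.9, 23.2 and 26.02 FPKM, Tob1 and Cdkn2c rose, and Cdkn1c and Ccnd2 fell.

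The promoters of these genes are shown because late cell cycle genes are known to share the CHR element (TTTGAA) and CCAAT boxes, and replication genes E2F sites (TTTCCCGC). In RefSeq promoters of GRCm38.p6, 250 bases before to 50 after the start, searched on both strands, TTTGAA occurred in 19 of 26 matched promoters of mitosis genes that fell (73.1%), against 945 of 8593 promoters of genes tested and 18.1% of all 27025 promoters. CCAAT occurred in 69.2% of the mitosis promoters and 69.6% of the 23 matched S phase promoters, against 38.3% of genes tested and 37.9% of all. TTTCCCGC occurred in 17.4% of the S phase promoters, against 2.18% and 1.11%, and in 0 of the mitosis promoters. In the 76 matched promoters of energy genes that rose, the element of the oestrogen-related receptors (TCAAGGTCA) occurred in 1 (1.32%), against 0.256% of genes tested and 0.407% of all, and the NRF1 element in 17.1%, against 947 of the 8593 and 4.78% of all. A match is a description of letters and not a binding site. The 200 bases before the start, 5′ to 3′ on the strand of the gene, are given for Mki67 (chr7:135716380-135716579, minus strand) and Ect2 (chr3:27153879-27154078, minus strand), with TTTGAA and CCAAT in capitals on either strand, for Cdc6 (chr11:98907951-98908150, plus strand), with the E2F element in capitals, and for Atp5g3 (chr2:73911327-73911526, minus strand), an ATP synthase subunit gene that rose 4.10-fold, with the receptor element in capitals.
Mki67: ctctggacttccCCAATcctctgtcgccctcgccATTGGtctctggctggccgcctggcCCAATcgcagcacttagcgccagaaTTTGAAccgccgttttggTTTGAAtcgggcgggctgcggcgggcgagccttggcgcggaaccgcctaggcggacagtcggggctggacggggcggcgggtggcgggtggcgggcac
Ect2: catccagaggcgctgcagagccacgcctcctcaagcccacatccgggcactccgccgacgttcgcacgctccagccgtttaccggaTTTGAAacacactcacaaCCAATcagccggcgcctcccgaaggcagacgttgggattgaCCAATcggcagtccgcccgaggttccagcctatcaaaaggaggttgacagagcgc
Cdc6: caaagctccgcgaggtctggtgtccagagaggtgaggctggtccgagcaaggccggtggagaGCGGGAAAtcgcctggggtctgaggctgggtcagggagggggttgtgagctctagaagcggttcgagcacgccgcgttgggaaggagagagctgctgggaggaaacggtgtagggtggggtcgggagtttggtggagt
Atp5g3: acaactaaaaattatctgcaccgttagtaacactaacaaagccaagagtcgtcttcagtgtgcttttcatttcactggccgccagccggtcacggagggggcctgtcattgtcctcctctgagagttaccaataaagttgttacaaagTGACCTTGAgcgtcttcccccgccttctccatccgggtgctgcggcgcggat
The Mki67 stretch holds 5 matches and the Ect2 stretch 3, and those of Cdc6 and Atp5g3 hold 1 each.

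Most oncofetal genes were lower in the ventricle, and imprinted genes were mixed. Of 14 oncofetal genes, RNA-binding proteins and targets of the let-7 microRNA family, 12 fell and 0 rose, with a median of -1.60. Hmga2, a chromatin protein and let-7 target, measured 56.1, 67.3 and 19.4 FPKM and then 5.10, 6.74 and 5.22 FPKM. Igf2bp1, which stabilises growth messages, fell 4.44-fold between means. Lin28b, the blocker of let-7 maturation, was low at both stages, 2.20, 2.69 and 1.61 FPKM and then 0.50, 0.80 and 0.21 FPKM. Its call was lost in 1 of 20 alternatives, that without E16.5 replicate 3. Of 29 imprinted growth genes, expressed from 1 parental copy, 13 fell, 4 rose and 12 were not called, against 31.0% lower over all genes tested. Their summed level was 9374, 9472 and 9207 FPKM at E11.5 and 9449, 8960 and 9975 FPKM at E16.5, with overlapping groups. Nnat fell from 144, 176 and 105 FPKM to 7.64, 8.07 and 7.07 FPKM, Cdkn1c, a growth-restraining cell cycle inhibitor, from 486, 622 and 671 FPKM to 96.9, 93.2 and 99.0 FPKM, and Peg3 4.04-fold. The abundant pair Igf2 and H19 differed little: Igf2 measured 1714, 1858 and 1774 FPKM and then 1365, 1320 and 1505 FPKM, H19 3963, 3789 and 4142 FPKM and then 4946, 4611 and 5342 FPKM, and the calls of both were lost in some alternatives. Igf2 shares 76.05% of its words with other genes, so its values are uncertain.

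Of 24 core cardiac transcription factor genes 10 rose and 7 fell, against 17.7% higher and 31.0% lower over all genes tested. Hopx, expressed in committed cardiomyocytes, rose from 48.6, 74.2 and 75.7 FPKM to 280, 276 and 306 FPKM. Hey2, the Notch-family repressor of the compact ventricle, rose from 31.8, 29.2 and 26.4 FPKM to 123.3, 100.5 and 106.0 FPKM, and Irx4 from 14.7, 23.5 and 8.90 FPKM to 37.7, 35.5 and 37.0 FPKM. Gata5 fell from 28.6, 35.6 and 25.01 FPKM to 0.96, 1.49 and 1.10 FPKM, 25.1-fold lower, while Gata4 was not called (82.5, 87.0 and 75.9 FPKM, then 71.4, 67.9 and 63.1 FPKM), nor was Nkx2-5. Hand2, the neighbour of the deleted gene, measured 58.6, 77.5 and 86.7 FPKM at E11.5 and 52.9, 49.4 and 46.0 FPKM at E16.5. The groups did not overlap, the difference was -0.56 (adjusted p = 0.0196 in limma). An exact permutation test, two-sided, gave p = 0.1, the smallest that 3 against 3 allow. The call was lost after median-ratio scaling (limma adjusted p = 0.174) and without either of 2 ventricle libraries.

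Genes of the atrium, sinus and conduction tissue fell in 19 of 22 cases and rose in 0, with a median of -1.52 (17 and 1 of 21 after median-ratio scaling). Besides Myl7 these included Nr2f1, a factor of atrial identity, from 14.8, 19.5 and 11.4 FPKM to 1.28, 1.55 and 1.05 FPKM, and Shox2, a sinus node factor, from 5.69, 16.4 and 6.90 FPKM to 0.75, 0.56 and 0.71 FPKM. Nppa, atrial natriuretic peptide, which the embryonic ventricle also makes, fell from 801, 1018 and 698 FPKM to 294, 468 and 444 FPKM. Vsnl1 was listed at 8.95, 5.91 and 9.23 FPKM and then at 0 in all 3 ventricles. Dissection removed the atria at E16.5, so the fall within ventricular cells cannot be told apart from the removal of atrial cells. Of 22 genes of the compact and trabecular ventricle, 6 rose and 10 fell, and 9 and 9 after median-ratio scaling, so no excess of falls held under both scalings. The falls included the trabecular genes Bmp10 (25.9, 22.9 and 16.4 FPKM to 5.98, 7.88 and 7.16 FPKM), Nppb and Sema3a and the compact layer gene Mycn.

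Outflow tract and second heart field genes fell in 14 of 19 cases and rose in 0 (13 and 2 after median-ratio scaling), and genes of the cushions, which form the valves, fell in 16 of 27 and rose in 2 (15 and 4). Hapln1, a cushion matrix link protein, went from 21.9, 36.2 and 19.4 FPKM to 0.28, 1.21 and 0.39 FPKM, and Twist1, a mesenchyme factor, from 27.5, 90.2 and 29.9 FPKM to 2.30, 3.34 and 1.53 FPKM. Crabp1 measured 14.1, 107.5 and 21.5 FPKM in the hearts and at most 0.09 FPKM in the ventricles. Several of these genes were highest in heart replicate 2, including Crabp1, Twist1, Tbx1 (1.32, 7.92 and 1.23 FPKM) and Six2 (1.29, 10.7 and 1.60 FPKM). Replicate 1 held liver transcripts that the other hearts nearly lacked, with Afp at 86.4 FPKM against 0 and 0 and Apoa1 at 36.2 against 0.60 and 0 FPKM. Among foregut genes Nkx2-1 was at 7.86 against 0 and 0.82 FPKM. Replicate 2 held others, with Epcam at 4.96, 4.59 and 1.27 FPKM and Cldn6 at 12.04, 4.58 and 0 FPKM in the 3 hearts. The summed hepatocyte markers were 305.6, 5.02 and 10.9 FPKM at E11.5 and 4.08 to 8.93 FPKM at E16.5, and of 9 tested 1 rose and 1 fell. The summed foregut and lung markers were 36.7, 13.8 and 2.90 FPKM at E11.5 and at most 0.89 FPKM at E16.5, and 1 of 3 tested fell. Neural and neural crest markers summed to 50.3, 48.8 and 29.6 FPKM and then to 16.1 to 17.1 FPKM, 4 of 7 tested fell and 0 rose, with Sox10 at 5.61, 3.77 and 2.36 FPKM in the hearts.

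Hox genes set position along the body axis. Of 13 tested in F/+, 10 fell and 0 rose, with a median of -2.18, and their summed level was 129.4, 103.2 and 42.8 FPKM in the hearts and 4.84 to 7.80 FPKM in the ventricles. Hoxa5 measured 7.53 to 27.9 FPKM at E11.5 in F/+ but 0.54, 1.80 and 2.04 FPKM in F/F hearts, and 4 Hox genes reached the filter in F/F, 2 of which fell. The part of neighbouring tissue in the falls of Hox, outflow and mesenchyme genes was not tested.

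Signalling genes of the early heart fell in most of the cases called. Of 30 BMP and TGF-beta pathway genes 19 fell and 2 rose, and of 29 Wnt pathway genes 18 fell and 2 rose, with medians of -0.858 and -0.791. The ligand gene Bmp4 fell from 28.04, 51.3 and 22.2 FPKM to 5.80, 5.54 and 4.21 FPKM, and the BMP target Id2 from 136, 180 and 136 FPKM to 32.9, 35.6 and 28.5 FPKM. Ltbp3, which stores latent TGF-beta in the matrix, rose from 5.97, 7.06 and 4.99 FPKM to 25.1, 29.2 and 25.6 FPKM. In the Wnt list the ligand Wnt2 fell from 12.6, 11.9 and 10.2 FPKM to 0.81, 0.27 and 1.13 FPKM and the nuclear effector Lef1 from 13.1, 16.2 and 6.48 FPKM to 0.33, 0.61 and 0.46 FPKM, while the secreted antagonist Wif1 rose. The Notch pathway went the other way, with 9 of 18 genes up and 3 down (9 and 1 after median-ratio scaling). Its rises were Hey2, the endothelial receptor Notch4 (5.40, 5.19 and 5.83 FPKM to 15.6, 14.9 and 17.04 FPKM), Notch1, Notch3, the ligands Jag2 and Dll4, and Mfng, Nrarp and Heyl, and the ligand Jag1 fell 2.85-fold.

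Collagen genes moved in both directions. Of 27 tested 14 rose and 8 fell, and the summed level went from 914, 1105 and 1099 FPKM to 2601, 2402 and 2516 FPKM. Col3a1 measured 120.8, 125.8 and 119.6 FPKM and then 413, 424 and 433 FPKM, and Col15a1, Col14a1 and Col6a3 rose from under 3 FPKM in each heart to 12.3 to 38.9 FPKM in the ventricles. Cartilage-type Col2a1, made by cushion mesenchyme and by skeletal precursors, fell from 34.4, 66.6 and 23.5 FPKM to 0.45, 0.71 and 0.47 FPKM. Of 36 other matrix genes 11 rose and 15 fell, 12 and 8 after median-ratio scaling. Fn1, fibronectin, fell from 348, 416 and 406 FPKM to 136, 131 and 109 FPKM and Sparcl1 rose 6.86-fold. Fibroblast markers were mixed, 5 up and 3 down of 12. Dpt, dermatopontin, was listed at 0 in the 3 hearts and at 25.2, 23.8 and 27.8 FPKM in the ventricles, Gsn rose from 35.2, 32.6 and 34.4 FPKM to 170, 152 and 154 FPKM, Postn and Dcn were not called, and Pdgfra fell from 14.5, 12.2 and 9.73 FPKM to 1.71, 1.57 and 1.26 FPKM.

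Vessel genes divided by kind. Markers of coronary and mature capillary endothelium rose in 11 of 15 cases and fell in 1. Gpihbp1, the capillary anchor of lipoprotein lipase, measured 0, 1.15 and 0 FPKM and then 31.4, 29.2 and 31.3 FPKM, Cav1, the caveolin of capillaries, 8.47, 8.90 and 11.3 FPKM and then 94.1, 80.1 and 71.3 FPKM, and Apln, the ligand made by sprouting coronary vessels, 1.19, 0.94 and 0 FPKM and then 11.4, 9.60 and 9.44 FPKM. General endothelial and endocardial markers divided, 7 up and 5 down of 16. Cldn5, the tight junction claudin, rose from 10.49, 11.9 and 4.72 FPKM to 54.5, 43.7 and 45.6 FPKM, whereas Plvap, Npr3, a marker of endocardium, Emcn and Pecam1 fell. The ventricle values of Pecam1 differed among libraries, as given above, and its 8-week median was 47.8 FPKM. Among mural markers 7 of 14 rose and 4 fell. The pericyte genes Kcnj8 (0.69, 0.44 and 4.11 FPKM to 14.1, 10.45 and 12.5 FPKM) and Cspg4 rose, and the smooth muscle genes Tagln (249, 303 and 264 FPKM to 16.49, 22.9 and 17.1 FPKM) and Acta2, which the early myocardium also expresses, fell.

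Of 4 lymphatic endothelial markers 2 rose and 2 fell. Epicardial markers fell in 11 of 12 cases and rose in 1. Upk3b, a marker of mesothelium, measured 94.7, 89.1 and 156 FPKM and then 10.99, 5.58 and 7.78 FPKM, Wt1 fell 3.22-fold and the retinoic acid enzyme Aldh1a2 from 42.5, 24.1 and 41.3 FPKM to 5.31, 5.11 and 4.33 FPKM. The exception was Msln, another mesothelial gene, at 0.44, 0.86 and 1.04 FPKM and then 8.33, 3.64 and 7.69 FPKM. All 8 tested megakaryocyte and platelet markers fell, among them Pf4, platelet factor, from 63.3, 72.9 and 64.1 FPKM to 4.62, 1.59 and 0.24 FPKM. Of 12 macrophage and immune markers 1 rose, C1qa (6.25, 2.95 and 5.19 FPKM to 12.1, 18.5 and 11.04 FPKM), 2 fell, and 9 were not called.

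Blood genes held the deepest falls. Of 9 haemoglobin genes 5 fell and 2 rose. The embryonic alpha-like globin Hba-x measured 36381, 20257 and 53191 FPKM at E11.5 and 9.11, 3.71 and 2.31 FPKM at E16.5, and the embryonic beta-like Hbb-y 34747, 16316 and 70870 FPKM and then 22.4, 15.5 and 8.04 FPKM. Hbb-bh1, also embryonic, went from 4913, 1975 and 10631 FPKM to 0 in all 3 ventricles. Heart replicate 3 was the highest and replicate 2 the lowest for each of these genes, in the order of their haemoglobin shares. Of 20 other erythroid markers 19 fell and 0 rose, with a median of -4.06. Slc4a1, the band 3 anion exchanger, measured 333, 147 and 691 FPKM and then 4.30, 2.42 and 4.04 FPKM, and the erythroid factor Klf1 39.7, 24.7 and 62.3 FPKM and then at most 0.24 FPKM. Of 18 haem and iron genes 15 fell, led by Alas2, the erythroid first enzyme of haem synthesis (149, 66.2 and 337 FPKM to 14.4, 8.32 and 9.32 FPKM), while the housekeeping enzyme Alas1 rose from 17.6, 14.6 and 12.4 FPKM to 29.7, 26.04 and 26.7 FPKM.

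The adult beta globin gene Hbb-b1 moved the other way in F/+. It measured 217, 28.8 and 562 FPKM at E11.5 and 2399, 2007 and 2414 FPKM at E16.5 (limma adjusted p = 0.00644). In F/F its difference was -1.50 (limma adjusted p = 0.626). Another beta globin gene, Hbb-b2, measured 88.0, 14.1 and 193.9 FPKM in the F/+ hearts and 55.2, 34.4 and 44.4 FPKM in the F/+ ventricles, with overlapping groups. Hbb-bs, a near-copy of Hbb-b1, was listed at no more than 0.01 FPKM in the hearts and at 174, 15.9 and 81.2 FPKM in the ventricles. In 2 of the 3 F/F ventricles the order of the 2 names was reversed, with Hbb-b1 at 75.9, 0 and 2966 FPKM and Hbb-bs at 6943, 4309 and 106 FPKM, so single values of these genes are uncertain. The sum of both was 28.8 to 562 FPKM in F/+ hearts and 2573, 2023 and 2495 FPKM in F/+ ventricles, and 252, 69.2 and 288 FPKM in F/F hearts and 7019, 4309 and 3072 FPKM in F/F ventricles, with no overlap in either genotype. Neither adult alpha globin gene was called higher. Hba-a1 measured 10236, 431 and 355 FPKM and then 116, 101 and 276 FPKM and was not called, and Hba-a2 fell from 249.5, 45.2 and 143 FPKM to a listed 0 in all 3 ventricles (limma adjusted p = 3.56e-05). They share 71.8% and 91.2% of their words with other genes, so these values are uncertain as well.

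A +/+ single-cell library of E11.5 hearts, of another genotype than the bulk embryos, was used to look up which genes are found in red blood cells. Of its 2563 barcodes 932 (36.4%) had more than 50% of their unique molecules from haemoglobin genes, and 18 barcode sequences also occurred in the other single-cell library. A gene was called erythroid-enriched at CPM (counts scaled to the library total) at least 4 times as high in these barcodes as in the rest. Of genes tested in bulk with at least 20 molecules, 109 of 10782 (1.01%) were enriched. The share was 89 of 3398 among genes that fell (2.62%) and 2 of 1843 among those that rose (0.109%). Of the 100 largest falls 91 could be looked up and 25 were enriched, and of the 100 largest rises 73 could be looked up and 1 was. With these genes left out, 5499 genes were called, 2028 higher and 3471 lower. These include all 5460 of the earlier calls that remained to be tested, and some new calls.

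The same stages in F/F embryos, which share no library with the comparison above, gave 5359 calls of 11396 genes (47.0%), 1977 higher (17.3%) and 3382 lower (29.7%), and groups without overlap in 58.5%. Of the 2016 genes that rose in F/+, 2006 were tested in F/F, 98.7% had the same direction and 75.8% were called in it. Of the 3536 that fell, 3435 were tested, 98.7% had the same direction and 79.1% were called in it. The opposite call was made for 2 and 1 genes. Ckm measured a mean of 1.64 FPKM in F/F hearts and 2411 FPKM in F/F ventricles, and its difference was 10.0. Lists were also counted in F/F, with 22 up and 5 down of 35 for complex I, 26 up and 3 down of 35 for fatty acids, 2 up and 27 down of 39 for mitosis, 1 up and 20 down of 22 for atrium, sinus and conduction, and 1 up and 11 down of 12 for the epicardium. Other lists were less alike in their counts. Endothelial and endocardial markers counted 4 up and 6 down in F/F against 7 and 5 in F/+, core cardiac factors 8 and 9 against 10 and 7, cytochrome oxidase 6 and 5 against 8 and 4, and glycolysis and glucose or lactate transport 11 and 8 against 14 and 5. The difference between genotypes was not tested for lists. Myl2 fell in F/F as well, by 2.82 on the log2 scale (limma adjusted p = 0.00025), with the library differences described above. A test of the difference between genotypes, over 11423 genes in all 12 embryonic libraries, called 1 gene, the microRNA locus Mir6236 (limma adjusted p = 6.42e-11), and 493 had an unadjusted p under 0.05.

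**Figure D5:**
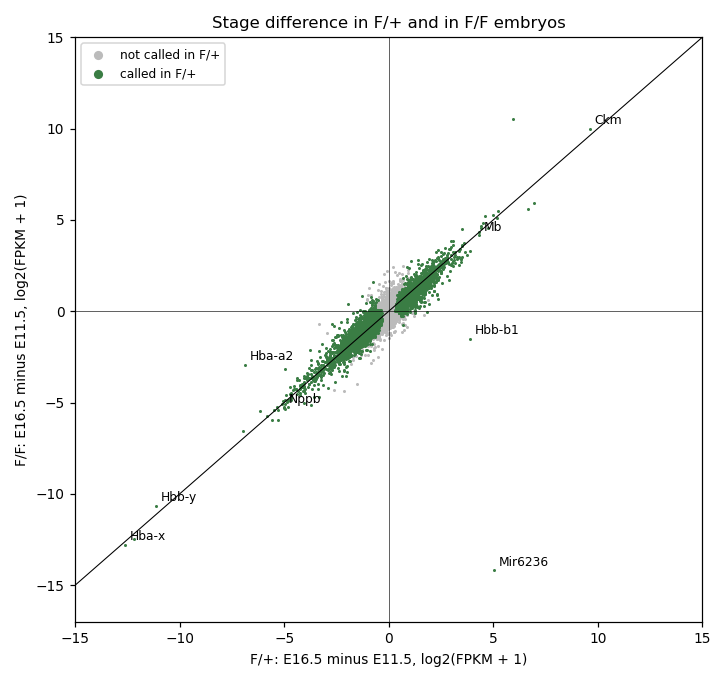
Difference E16.5 minus E11.5 on the log2(FPKM + 1) scale of genes tested in both genotypes, F/+ on the x axis and F/F on the y axis, with green for genes called in F/+ and the line of equal difference. Most called genes lie on the same side of 0 in both, and the labelled exceptions Hbb-b1 and Mir6236 lie on opposite sides.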

How the data were processed

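Poly(A) RNA was extracted with TRIzol and made into TruSeq Stranded mRNA libraries, per the labels' protocols. The authors deposited 1 table for 25 bulk libraries, whose values are taken as FPKM from their size and sums, since the unit is not named. The submitters' processing notes name CASAVA, TopHat2 2.0.11 and mm9, while the counting program, the annotation and the strand setting are not given in the sources used here. Single-cell values are whole UMI counts as deposited, with Cell Ranger and mm10 named in the same notes; each library pooled hearts, and only the +/+ library was used, identified by barcode ending, with no doublet caller. It served to describe red blood cell transcripts and to look up genes with low bulk values.

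The 24525 lines were merged by symbol to 24025 genes (270 symbols stood on 769 lines, and a gene lacking a value was dropped, 1 in all). Differences were fitted on log2(FPKM + 1) with limma 3.58.1 (trend, R 4.3.3) over genes averaging 1 FPKM or more, 3 libraries against 3, with Benjamini-Hochberg adjustment at 0.05. The number of reads per library is unknown, so no counting interval is given. The fit was tested on simulated data for F/+ with 11405 genes, of which 67, 67 and 66 were changed by 0.5, 1 and 2 on the log2 scale. It recovered 4.48%, 29.9% and 78.8% of these and called 0.0446% of the 11205 unchanged genes. With so few changed genes the adjusted threshold is stricter than in the data, where 48.7% were called. The recovery rates therefore do not apply to the data.

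The gene lists and the comparison were chosen with earlier results of these data known, and lists are described by counts and medians without a test. Named are the 12 largest rises and falls among called genes averaging 5 FPKM or more, no 0 and no overlap (microRNA, snoRNA, Gm, LOC and Rik symbols left out), up to 4 called members per list, isoform partners whatever their result, and genes listed at 0 in 1 group. Other genes named were chosen after their values were seen. Shared words were computed from GENCODE M21 transcripts, and promoters come from RefSeq. Alternatives covered scaling, pseudocount, filters, covariates, weights, left-out libraries and, added after seeing the data, near-copies and short transcripts. Some items are not reported here.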

Additional observations from a re-analysis of the deposited data

Results flagged for a closer look

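The stage difference of Mir6236, a microRNA locus, was unlike between the genotypes. It was listed at 0 in the 3 F/+ hearts and at 17.6, 48.8 and 38.6 FPKM in the F/+ ventricles, but at 10852, 27597 and 21247 FPKM in the F/F hearts and at 0 in the F/F ventricles. The test of the difference itself (limma on 12 libraries, F/F minus F/+) gave -19.23 on the log2(FPKM + 1) scale, adjusted p = 6.42e-11, with every sample of each genotype in the same direction.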

How the results depend on the processing

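No called gene was called in the opposite direction under any alternative, and 72.0% to 100% of the F/+ calls were still called in each. The balance of directions moved with the scaling: 3021 higher and 2800 lower with median ratios, 3004 and 2800 with upper quartiles, and 2867 and 2836 with the GC trend removed (50.3% higher), against 2016 and 3536. In F/F, median ratios gave 2738 higher and 2629 lower. Asking for a log2 difference of at least 1 left 982 higher and 1991 lower in F/+, and 956 and 1961 in F/F. Leaving out 1 library gave 4002 (without E16.5 replicate 2) to 6409 (without E11.5 replicate 3) calls in F/+, 1384 to 2214 higher and 2617 to 4292 lower, and 3773 to 5297 in F/F. The difference of Hand2 was -0.339 (limma adjusted p = 0.174) with median ratios and -0.342 (0.157) with upper quartiles. It ranged from -0.72 to -0.442 with 1 library left out and missed the threshold without E16.5 replicate 2 (limma adjusted p = 0.0662) or 3 (0.0749). The cause was not tested. With a replicate block 5252 genes were called in F/+ and 5048 in F/F. Deviations of same-numbered F/+ libraries correlated at 0.011, 0.026 and -0.018, so the numbers pair no samples. Of 2016 list counts under alternatives 1834 stayed within 1.5 times. Of 189 called named genes 15 lost the call in some alternative: Hbb-b1, Myh6, Actc1, Atp2a2, Cox8a, Igf2, H19, Lin28b, Ndufa3, Uqcr10, Aldoc, Flt4, Rgs5, Coro1a and Trf. Unknown depth limits what a value near 0 can show.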
